A study of Mus musculus with 3 samples.

Results

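A set of 10 genes that handle the amino acid arginine were followed across monocytes and their descendants in mice with experimental autoimmune encephalomyelitis (EAE), a model of multiple sclerosis. The genes were picked by name, as enzymes and a transporter of arginine and polyamine metabolism, with earlier results of these data known. All 10 were among the 22238 genes quantified in every library. They are Nos2, Arg1, Arg2, Slc7a2, Ass1, Asl, Odc1, Srm, Sms and Gch1. RNA-Seq was carried out on 3 sorted populations, with 1 library each. C57BL/6J females, labelled WT and 10 to 12 weeks old, were immunized with MOG peptide in CFA and received pertussis toxin (250 ng) at 2 time points. They were analysed at the peak of EAE, on days 14 to 15. Bone marrow (BM) monocytes, pooled from 13 mice in 2 experiments, were sorted as CD45+ CD11b+ Ly6Chi cells without Ly6G and CD11c. Spinal cord (SC) monocytes and SC monocyte-derived antigen-presenting cells (APCs), pooled from 18 mice in 3 experiments, were both CD45+ CD11b+ CD64+ Ly6G-, and were separated by high Ly6C on the monocytes and low or no Ly6C on the APCs. The study's methods describe both as gates on the same spinal cord preparations, so these 2 libraries share animals, whereas the BM pool was smaller. All 3 populations thus came from immunized mice, and no unimmunized group was analysed here. Spinal cords were digested with enzymes and run on a density gradient, whereas marrow was flushed and enriched with a monocyte isolation kit. Tissue and preparation therefore cannot be told apart in comparisons with BM monocytes.

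Arginine enters myeloid cells through cationic amino acid transporters and is then claimed by competing enzymes. Nitric oxide synthases turn it into nitric oxide and citrulline, using tetrahydrobiopterin as a cofactor, and arginases turn it into urea and ornithine. Ornithine is the starting point of the polyamines putrescine, spermidine and spermine, while citrulline can be recycled to arginine. In activated macrophages, Nos2 and Arg1 are widely used as signs of opposed inflammatory and reparative states.

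The libraries held 27283795 to 33280643 estimated reads. With 1 library per population no difference has a replicate check, no p-value is given, and every interval covers counting error only, with PCR copies not being independent molecules. The APC library was quantified by the authors on a smaller transcript set (22242 genes) than both monocyte libraries (54432 genes), so TPM (transcript abundance as a share of all transcripts, corrected for length) was rescaled to the same sum over the 22238 common genes. A level below is this rescaled TPM with a 95% Wilson interval. A fold change is the log2 ratio of scaled reads with a 98% interval, and a gene was called higher or lower where all of that interval exceeded a factor of 2 and its TPM was over 3 in at least 1 of both libraries. Of the genes that reached this TPM (active genes), 24.6% were called in SC against BM monocytes, 3.61% in APCs against SC monocytes and 25.8% in APCs against BM monocytes. Per length, that is, on reads over effective length, these shares were 25.2%, 5.71% and 26.8%. The sorted populations carried other cells' markers. The summed level of 7 microglia genes was 13.8 TPM in BM monocytes, 155 TPM in SC monocytes and 415 TPM in APCs, and all 7 were called higher in each step. Of these, 1 gene, Sall1, had 0 reads in BM monocytes. The summed level of 7 T cell genes was 0.498, 94.2 and 147 TPM in the same order, with 3 of them at 0 reads in BM monocytes, and that of 7 proliferation genes 922, 240.4 and 198 TPM. The T cell sum includes Il7r, at 0.0620, 28.7 and 55.3 TPM. The paper reports this receptor gene as induced in the SC monocytes and APCs. The sum of 7 neutrophil genes, 960, 289 and 344 TPM, was mostly Mmp8 in BM monocytes (707 TPM). In SC against BM monocytes, 2 of the 7, Retnlg and Cxcr2, were called higher and 3, Camp, Ltf and Mmp8, lower. The sum of 4 granulocyte precursor genes, Elane, Mpo, Prtn3 and Ctsg, was 630, 62.5 and 22.9 TPM. All 4 were called lower in SC monocytes and in APCs than in BM monocytes. The sums of 4 erythroid genes (0.318, 70.0 and 22.8 TPM) and 5 endothelial genes (85.2, 148 and 78.5 TPM) were highest in SC monocytes. The endothelial sum includes Ly6c1, at 68.1, 76.2 and 35.4 TPM, which the paper uses as a monocyte gene. The part of these cells in the results below was not tested. In sorted bulk RNA, fewer cells of a type and less RNA per cell cannot be told apart. One label field of the APC library names bone marrow, whereas its title and tissue name the spinal cord. All 5 genes of antigen presentation were called higher in that library than in either monocyte library.

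In SC monocytes compared to BM monocytes, 7 of the 10 genes were called higher (Nos2, Arg1, Arg2, Slc7a2, Ass1, Odc1 and Gch1) and 0 lower, where 13.6% of all active genes were called higher and 11% lower. Their median log2 fold change was 3.11, against -0.17 for all active genes. Because the 10 genes were chosen with earlier results of these data known, these shares and medians describe them and are no test. The genes that rose include both enzymes that consume arginine for nitric oxide and for ornithine, the transporter, and the first enzyme of the polyamine path. Asl, Srm and Sms were not called. In APCs compared to SC monocytes, 1 gene, Gch1, was called lower and 0 higher, where 1.66% of active genes were called lower and 1.94% higher, and the median log2 fold change was -0.12 against -0.03 for all active genes. APCs compared to BM monocytes had 6 genes called higher and 0 lower, where 14% of active genes were called higher and 11.7% lower, with a median of 3.01 against -0.17. The 3 comparisons share libraries and are not independent of each other.

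**Figure D1:**
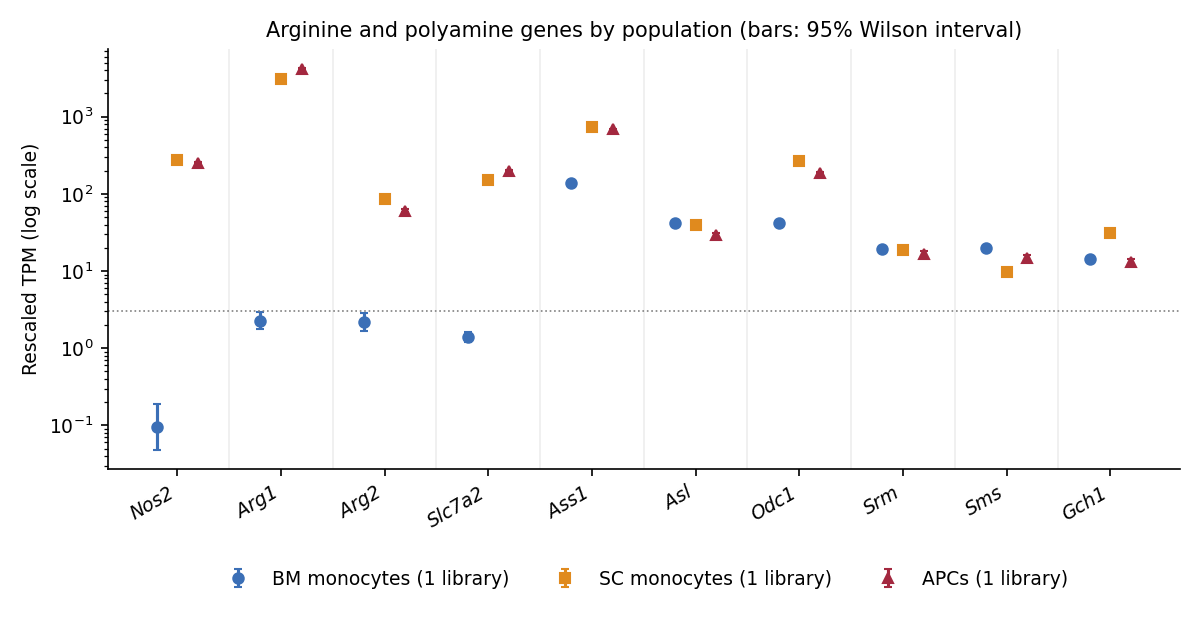
Rescaled TPM of the 10 genes (log axis) in BM monocytes, SC monocytes and APCs, 1 library each; bars are 95% Wilson intervals, often smaller than the symbols, and the dotted line marks 3 TPM. Nos2, Arg1, Arg2 and Slc7a2 lie below the line in BM monocytes and between 60.4 and 4207 TPM in both spinal cord populations, while Asl, Srm and Sms stay within 9.59 to 42.5 TPM in all 3.

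Genome windows at the start of called genes are shown first, since these genes' transcript levels differed between the populations. RefSeq promoter windows of 300 bases (250 before and 50 after the annotated start, GRCm38.p6) matched 4 of the 10 genes, Ass1, Odc1, Gch1 and Sms, and those of the 3 called genes are printed. The Ass1 window is chr2:31470020-31470319 on the plus strand, that of Odc1 chr12:17544623-17544922 on the plus strand and that of Gch1 chr14:47189364-47189663 on the minus strand. Each reads 5′ to 3′ along the gene, and capitals mark matches to the searched letters.
Ass1: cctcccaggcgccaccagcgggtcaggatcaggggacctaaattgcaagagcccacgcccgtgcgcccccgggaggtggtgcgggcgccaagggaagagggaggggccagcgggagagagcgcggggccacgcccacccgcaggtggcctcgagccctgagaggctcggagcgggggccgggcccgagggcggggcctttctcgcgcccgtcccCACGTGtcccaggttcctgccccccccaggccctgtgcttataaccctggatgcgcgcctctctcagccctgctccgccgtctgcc
Odc1: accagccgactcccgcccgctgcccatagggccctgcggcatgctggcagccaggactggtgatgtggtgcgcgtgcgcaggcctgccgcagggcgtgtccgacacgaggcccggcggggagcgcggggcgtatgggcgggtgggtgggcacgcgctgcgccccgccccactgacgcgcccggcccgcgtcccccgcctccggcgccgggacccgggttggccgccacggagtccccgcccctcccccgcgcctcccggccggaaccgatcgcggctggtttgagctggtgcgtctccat
Gch1: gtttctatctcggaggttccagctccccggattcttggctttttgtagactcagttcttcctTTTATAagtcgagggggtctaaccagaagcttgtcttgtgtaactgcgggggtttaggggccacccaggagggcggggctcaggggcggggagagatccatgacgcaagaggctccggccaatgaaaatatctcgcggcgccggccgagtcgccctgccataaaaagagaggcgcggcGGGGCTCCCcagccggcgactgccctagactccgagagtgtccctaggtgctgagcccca
The letters searched on both strands were TATAAA (the TATA box), CACGTG (the E-box read by Myc and related factors), TGACGTCA (the cyclic AMP response element), TTCNNNGAA (the STAT site), the interferon response element ISRE, GGGANNNCC (a loose NF-kappa B core) and TTGCNNAA (the C/EBP site). In Ass1 the match was CACGTG, beginning 36 bases before the RefSeq start, and 7.15% of 32851 mouse windows hold these letters. The gene start given for Ass1 below, 31470207, is from another annotation (GENCODE) and lies upstream of this match. In Gch1 the matches were TATAAA on the other strand at 188 bases and GGGANNNCC on the other strand at 10 bases before the start, letters held by 13.6% and 18.6% of windows. The Odc1 window, 78% G and C, held no match to any of the 7. A match is a description of letters, and no binding was measured here.

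Nos2, the inducible nitric oxide synthase (ENSMUSG00000020826.8, chr11:78920787-78960254, plus strand, GRCm38), had 8, 20683 and 20867 reads in BM monocytes, SC monocytes and APCs. Its level was 0.0952 TPM (95% interval 0.0482 to 0.188) in BM monocytes, 276 TPM (272 to 279.5) in SC monocytes and 254 TPM (251 to 257) in APCs. The gene went from rank 12474 of 22238 to rank 566 in SC monocytes and 542 in APCs. From BM to SC monocytes it rose by 11.68 on the log2 scale (98% interval 10.67 to 12.99). This change and that of Arg1 had overlapping intervals, and their order turned on rescaled TPM plus 1, where Nos2 rose by 7.98 and Arg1 by 9.89. The difference between APCs and SC monocytes was -0.13 (-0.17 to -0.10) on reads and -0.04 per length, and Nos2 was not called. The sign of this small difference rested on the scaling, being 0.11 with TPM as deposited.

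Arg1, the cytosolic arginase (ENSMUSG00000019987.9, chr10:24915221-24927484, minus strand), was the most abundant of the 10 genes in both spinal cord libraries. It had 59, 71856 and 107637 reads, or 2.27 TPM (95% interval 1.76 to 2.92) in BM monocytes, 3097 TPM (3074 to 3119) in SC monocytes and 4207 TPM (4182 to 4232) in APCs. By level it ranked 9672 of 22238 in BM monocytes, 36 in SC monocytes and 26 in APCs. From BM to SC monocytes Arg1 rose by 10.69 (98% interval 10.28 to 11.15) on the log2 scale. The second step, from SC monocytes to APCs, gave 0.44 (0.42 to 0.45), above 0 beyond counting error but short of the threshold, so Arg1 was not called. Arg1 alone made up 0.806% of the summed TPM of the 10 genes in BM monocytes, 65.9% in SC monocytes and 74.3% in APCs.

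Arg2, the mitochondrial arginase (ENSMUSG00000021125.6, chr12:79130777-79156301, plus strand), stood at 2.20 TPM (95% interval 1.69 to 2.86) in BM monocytes, 85.4 TPM (81.7 to 89.4) in SC monocytes and 60.4 TPM (57.4 to 63.6) in APCs. Its reads were 55, 1907 and 1484. In the marrow, both arginases were at the same level within counting error, and in the spinal cord the cytosolic one was far higher. Arg2 rose by 5.56 (98% interval 5.12 to 6.04) on the log2 scale from BM to SC monocytes, and its log2 fold change to APCs was -0.51 (-0.63 to -0.39), not called. Arg2 overlaps exons of Vti1b (285 bases) and Gm48780 (116 bases) on the other strand, and whether the counting used strand is not given in the sources used here. The transcripts of Arg1 and Arg2 share no run longer than 12 bases, which is shorter than the 50-base reads.

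Within a library, the ratio of 2 genes' levels does not depend on the scaling between libraries. Arg1 to Nos2 was 23.8 (95% interval 11.5 to 48.5) in BM monocytes, where Nos2 had 8 reads, 11.2 (11.1 to 11.4) in SC monocytes and 16.6 (16.3 to 16.8) in APCs. The ratio in APCs exceeded that in SC monocytes by 0.56 ± 0.031 on the log2 scale (half-width of a 95% counting interval). Arg1 to Arg2 was 1.03 (0.714 to 1.48) in BM monocytes, 36.2 (34.6 to 37.9) in SC monocytes and 69.6 (66.2 to 73.3) in APCs. Both ratios were thus higher in APCs than in SC monocytes beyond counting error, and neither has a replicate. Together, Nos2, Arg1 and Arg2 summed to 4.56 TPM in BM monocytes, 3458 TPM in SC monocytes and 4521 TPM in APCs.

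**Figure D2:**
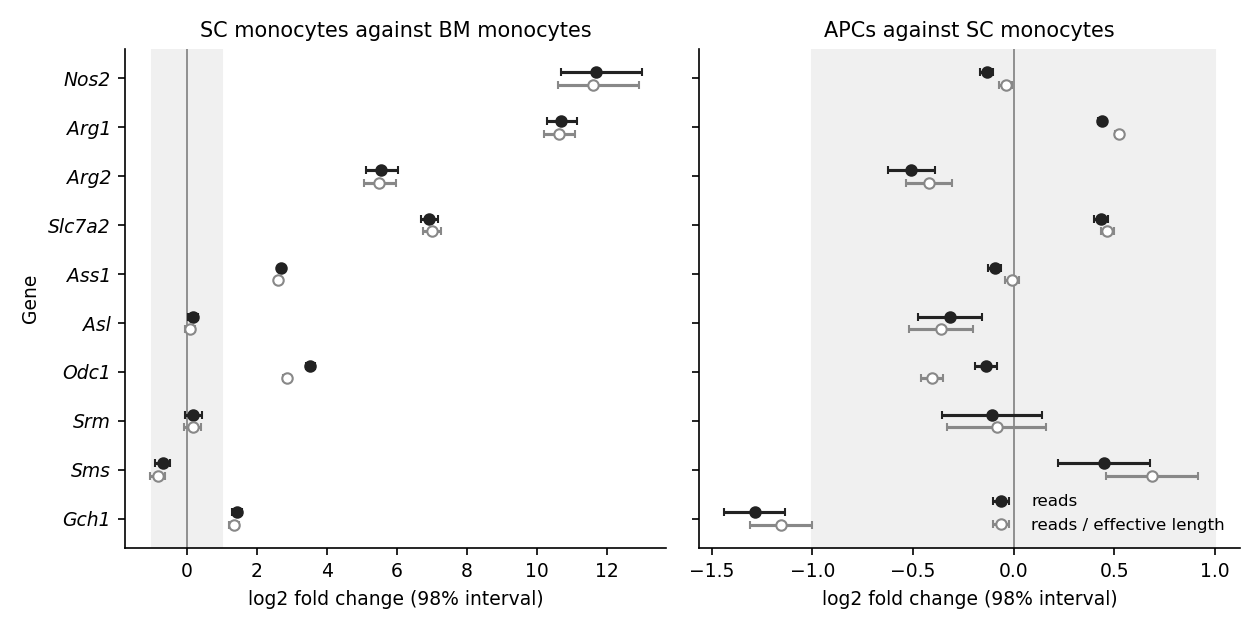
log2 fold change of the 10 genes in SC against BM monocytes (left) and APCs against SC monocytes (right, narrower scale), from reads (filled) and from reads over effective length (open); bars are 98% intervals and the grey band spans a 2-fold change either way. In the left panel 7 genes lie beyond the band and in the right panel only Gch1 does, with 0.67 units between both measures of Odc1 on the left.

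Slc7a2 encodes the cationic amino acid transporter CAT2, which brings arginine into the cell (ENSMUSG00000031596.15, chr8:40862396-40922308, plus strand). It had 182, 16117 and 24069 reads, or 1.39 TPM (95% interval 1.21 to 1.61) in BM monocytes, 153 TPM (151 to 156) in SC monocytes and 200.1 TPM (198 to 203) in APCs. It rose by 6.92 (98% interval 6.68 to 7.18) on the log2 scale from BM to SC monocytes, the third of the 10 by size. The second step gave 0.43 (0.40 to 0.47), nearly the value of Arg1, and Slc7a2 was not called. Slc7a2 overlaps exons of Gm26584 on the other strand over 635 bases.

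Of the 2 enzymes that rebuild arginine from citrulline, the first rose in the spinal cord and the second was not called. Ass1, argininosuccinate synthase (ENSMUSG00000076441.9, chr2:31470207-31520672, plus strand), was the highest of the 10 genes in BM monocytes at 137 TPM (95% interval 133 to 141). It stood at 725 TPM (715 to 735) in SC monocytes and 682 TPM (673 to 692) in APCs, from 4215, 19843 and 20568 reads. Ass1 rose by 2.69 (98% interval 2.64 to 2.75) on the log2 scale from BM to SC monocytes, and its log2 fold change to APCs was -0.10 (-0.13 to -0.06), not called. The call was lost where libraries were assumed to vary with a coefficient of variation of 0.4. Of the 25-base words in Ass1 transcripts, 44.7% also occur in other annotated transcripts, chiefly the pseudogene Gm5424.

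Asl, argininosuccinate lyase (ENSMUSG00000025533.15, chr5:130011258-130029247, minus strand), which takes the product of Ass1 to arginine and fumarate, was not called in any comparison. It had 1136, 943 and 838 reads, or 42.5 TPM (95% interval 40.1 to 45.0), 39.2 TPM (36.8 to 41.8) and 28.9 TPM (27.0 to 30.9). Between BM and SC monocytes it differed by 0.19 on the log2 scale (98% interval 0.04 to 0.34) and between SC monocytes and APCs by -0.32 (-0.48 to -0.16). On rescaled TPM the first of these was -0.11. The ratio of Ass1 to Asl went from 3.23 (95% interval 3.03 to 3.45) in BM monocytes to 18.5 (17.3 to 19.7) in SC monocytes and 23.6 (95% interval up to 25.3) in APCs, a log2 change of 2.52 ± 0.133 from the marrow to the spinal cord and 0.35 ± 0.137 from SC monocytes to APCs (half-widths of 95% counting intervals).

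The polyamine enzymes also parted at the first step. Odc1, ornithine decarboxylase, which makes putrescine and limits the rate of the path (ENSMUSG00000011179.8, chr12:17544794-17551505, plus strand), had 886, 7471 and 7521 reads. Its level was 42.2 TPM (95% interval 39.5 to 45.1) in BM monocytes, 265 TPM (259 to 271) in SC monocytes and 189 TPM (185 to 193) in APCs. It rose by 3.53 (98% interval 3.42 to 3.65) on the log2 scale from BM to SC monocytes when reads were compared, and by 2.87 per length. The effective length of Odc1 was 983 bases in BM monocytes, 1457 in SC monocytes and 1910 in APCs, which moved the size of the change by more than the counting error. To APCs the log2 fold change was -0.14 (-0.19 to -0.08) on reads and -0.41 per length, not called on either. Odc1 has 8 annotated transcripts, of which 1 is protein coding, and shares 34.0% of its 25-base words with other transcripts.

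Srm, spermidine synthase (ENSMUSG00000006442.10, chr4:148591503-148594993, plus strand), had 440, 365 and 375 reads and stood at 19.2 TPM (95% interval 17.5 to 21.1), 18.5 TPM (16.7 to 20.5) and 16.5 TPM (14.9 to 18.3). Its intervals overlapped in all 3 libraries, and its log2 fold changes of 0.19 (98% interval -0.05 to 0.43) and -0.11 (-0.36 to 0.14) spanned 0. Sms, spermine synthase, which adds the last aminopropyl group (ENSMUSG00000071708.11, chrX:157443855-157492287, minus strand), had 786, 358 and 541 reads. Its level was 19.8 TPM (18.5 to 21.3) in BM monocytes, 9.59 TPM (8.64 to 10.6) in SC monocytes and 14.6 TPM (13.4 to 15.9) in APCs. SC monocytes were thus the lowest of the 3 libraries for Sms.

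The log2 fold change of Sms was -0.67 (98% interval -0.89 to -0.46) from BM to SC monocytes and 0.45 (0.22 to 0.68) to APCs, and neither was called. On rescaled TPM with a pseudocount of 0.1, the first was -1.04 and past a plain 2-fold change. A processed copy, Sms-ps, held 185 and 65 reads in BM and SC monocytes and was not among the genes quantified for the APC library. With these reads added to Sms, the log2 fold changes were -0.74 (-0.94 to -0.54) and 0.21 (-0.01 to 0.43), so that the difference between APCs and SC monocytes came within counting error of 0. The ratio of Odc1 to Sms was 2.13 (95% interval 1.93 to 2.34) in BM monocytes, 27.6 (24.8 to 30.7) in SC monocytes and 12.9 (11.8 to 14.1) in APCs. Srm to Sms was 0.967 (0.861 to 1.09), 1.93 (1.67 to 2.23) and 1.13 (0.992 to 1.29). The ratios of the first and middle enzymes to the last one were both highest in SC monocytes. Sms-ps reads were not added to Sms in these ratios.

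**Figure D3:**
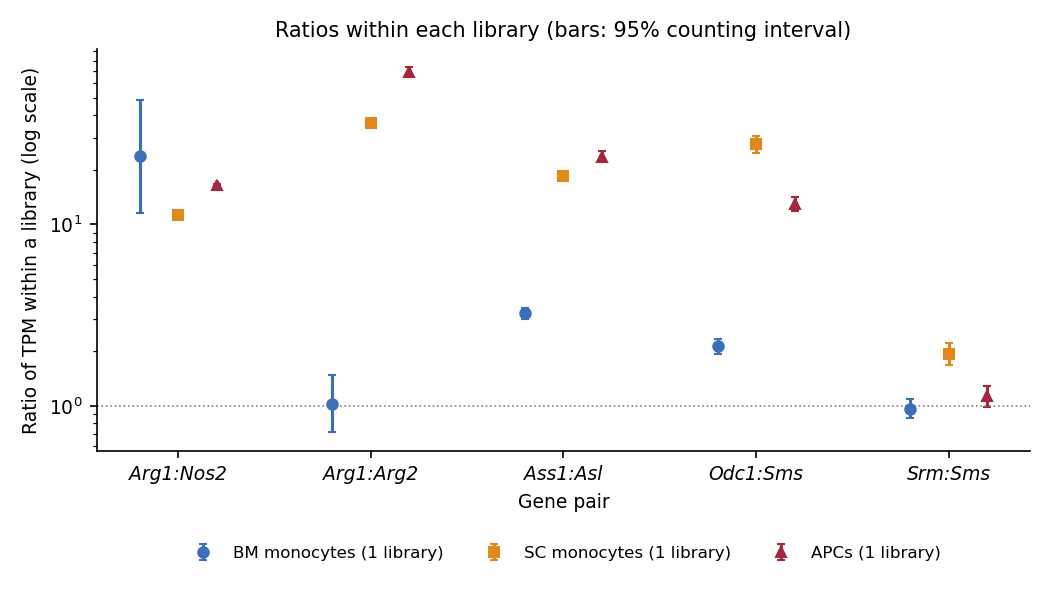
Ratio of TPM of 2 genes within each library (log axis) for 5 pairs; bars are 95% counting intervals and the dotted line marks a ratio of 1. Arg1:Arg2 and Ass1:Asl are lowest in BM monocytes and highest in APCs, whereas Odc1:Sms and Srm:Sms, without Sms-ps reads, peak in SC monocytes at 27.6 and 1.93.

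Gch1, GTP cyclohydrolase, the first and rate-limiting enzyme of tetrahydrobiopterin synthesis (ENSMUSG00000037580.10, chr14:47153895-47189413, minus strand), was the only gene of the 10 called in both steps. It had 776, 1539 and 698 reads, or 14.3 TPM (95% interval 13.3 to 15.4) in BM monocytes, 31.2 TPM (29.7 to 32.8) in SC monocytes and 13.3 TPM (12.3 to 14.3) in APCs. It rose by 1.45 (98% interval 1.30 to 1.60) on the log2 scale from BM to SC monocytes and fell by 1.29 (log2 fold change -1.29, -1.44 to -1.14) to APCs. Levels in BM monocytes and APCs overlapped within their intervals, and the log2 fold change between them was 0.17 (-0.00 to 0.35). The summed erythroid and endothelial genes, the latter including Ly6c1, were also highest in SC monocytes, and their part in this was not tested. Both calls were lost where libraries were assumed to vary with a coefficient of variation of 0.2, and the log2 fold change to APCs was -0.95 with TPM as deposited. Nos2, whose product uses the cofactor, had no such second step, and the ratio of Gch1 to Nos2 changed there by -1.11 ± 0.132 on the log2 scale. Gch1 to Nos2 was 150.4 (76.0 to 293) in BM monocytes, 0.113 (0.107 to 0.119) in SC monocytes and 0.0522 (0.0484 to 0.0563) in APCs.

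In order of level, BM monocytes had Ass1 first, then Asl and Odc1, whose intervals overlapped, then Sms and Srm, which also overlapped, followed by Gch1, the pair Arg1 and Arg2, Slc7a2 and Nos2. In SC monocytes the order was Arg1, Ass1, Nos2, Odc1, Slc7a2, Arg2, Asl, Gch1, Srm and Sms, and no neighbours overlapped. In APCs it was Arg1, Ass1, Nos2, Slc7a2, Odc1, Arg2, Asl, Srm, Sms and Gch1. There the intervals of Srm and Sms overlapped, and so did those of Sms and Gch1. Recycling of citrulline (Ass1 and Asl) held 63.9% of the 10 genes' summed TPM in BM monocytes, 16.3% in SC monocytes and 12.6% in APCs. The polyamine enzymes (Odc1, Srm and Sms) held 28.9%, 6.23% and 3.88%, although their summed level was higher in SC monocytes (293 TPM) and APCs (220.1 TPM) than in BM monocytes (81.2 TPM).

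Of all 9910 genes considered, those most like each called gene were sought by the distance between their pairs of log2 fold changes (SC against BM monocytes, APCs against SC monocytes). The likeness rests on 3 libraries. For Arg1 the nearest were Flrt3 (distance 0.0945), Gem (0.315) and Ccl5 (0.572), and for Nos2 they were Flrt3 (1.08), Arg1 (1.14) and Il1a (1.14). Flrt3 and Gem were listed at 0 TPM in BM monocytes, so their fold changes depend on the read added to each count. Slc7a2 lay nearest to C1s1 (0.0911), Spp1 (0.105) and Insl6 (0.143), and Arg2 to Cd69 (0.0560), Fosl1 (0.0647) and Gfap (0.111). Gfap, an astrocyte marker, had 7 reads in BM monocytes, with an effective length of 142 bases there and 2370 in SC monocytes. Its level went from 2.31 to 5.57 TPM, so its likeness to Arg2 holds on reads and not on TPM. Ass1 lay nearest to Runx3 (0.0794), Junb (0.0900) and Bnip3 (0.0972), and Odc1 to Pfkfb3 (0.0452), Marcksl1 (0.0483) and Adap2 (0.0537). Gch1 lay nearest to Ifit1bl1 (0.113), Gk (0.153) and Oas3 (0.159), of which Ifit1bl1 and Oas3 belong to families induced by interferon.

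A wider list of 53 genes around these paths was followed beside the 10. In SC against BM monocytes, 5 of 38 active genes were called higher and 3 lower, beside 13.6% and 11% of all active genes, with a median log2 fold change of -0.29. In APCs against SC monocytes, 0 of 36 were called higher and 1 lower (median -0.12), beside 1.94% and 1.66%. In APCs against BM monocytes, 4 of 38 were called higher and 7 lower (median -0.15), beside 14% and 11.7%.

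Of 6 further arginine transport genes, Slc3a2 rose, by 3.44 on the log2 scale from BM to SC monocytes. It encodes the heavy chain shared by several amino acid exchangers and stood at 52.3, 443 and 394 TPM in BM monocytes, SC monocytes and APCs. Slc7a7 and Slc7a6, light chains that pair with it to exchange cationic amino acids, were not called, with Slc7a7 at 45.2, 40.4 and 35.03 TPM. Slc7a1, the widely expressed arginine transporter CAT1, was not called either, at 11.6, 10.8 and 8.92 TPM. Slc7a2 was therefore above Slc7a1 in both spinal cord libraries and below it in the marrow. The other nitric oxide synthases had few reads, with 3, 47 and 34 reads for Nos1 and 4, 98 and 50 reads for Nos3, all under 3 TPM.

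Of 16 genes that link arginine, ornithine, proline and glutamate, 10 were active. Of these, 3 were called higher and 1 lower in SC than BM monocytes, where 13.6% and 11% of all active genes were. Gatm, which uses arginine in the first step of creatine synthesis, rose by 4.04 on the log2 scale and stood at 20.0, 280.3 and 274 TPM. Gamt, which completes that synthesis, stood at 12.3, 5.95 and 8.84 TPM and was not called. Got1, the cytosolic aspartate aminotransferase, rose by 3.67, from 11.0 TPM to 131 TPM, and stood at 119 TPM in APCs. Its mitochondrial counterpart Got2 stood at 147, 72.9 and 70.4 TPM and was not called. Aldh18a1, which starts proline and ornithine synthesis from glutamate, rose by 1.46 on reads and stood at 12.7, 24.5 and 13.4 TPM. On TPM this rise was short of 2-fold. The wider list had 4 higher calls in this comparison, in place of 5, on rescaled TPM plus 1 and with an assumed coefficient of variation of 0.2. Glud1, mitochondrial glutamate dehydrogenase, fell by 1.51, from 622 TPM to 177 TPM, and stood at 94.8 TPM in APCs. Oat, which moves ornithine toward proline and glutamate, was not called, at 83.1, 47.1 and 42.8 TPM. The urea cycle genes Otc and Cps1 had 0 reads in every library, with upper 95% Wilson limits of at most 0.0832 TPM.

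**Figure D4:**
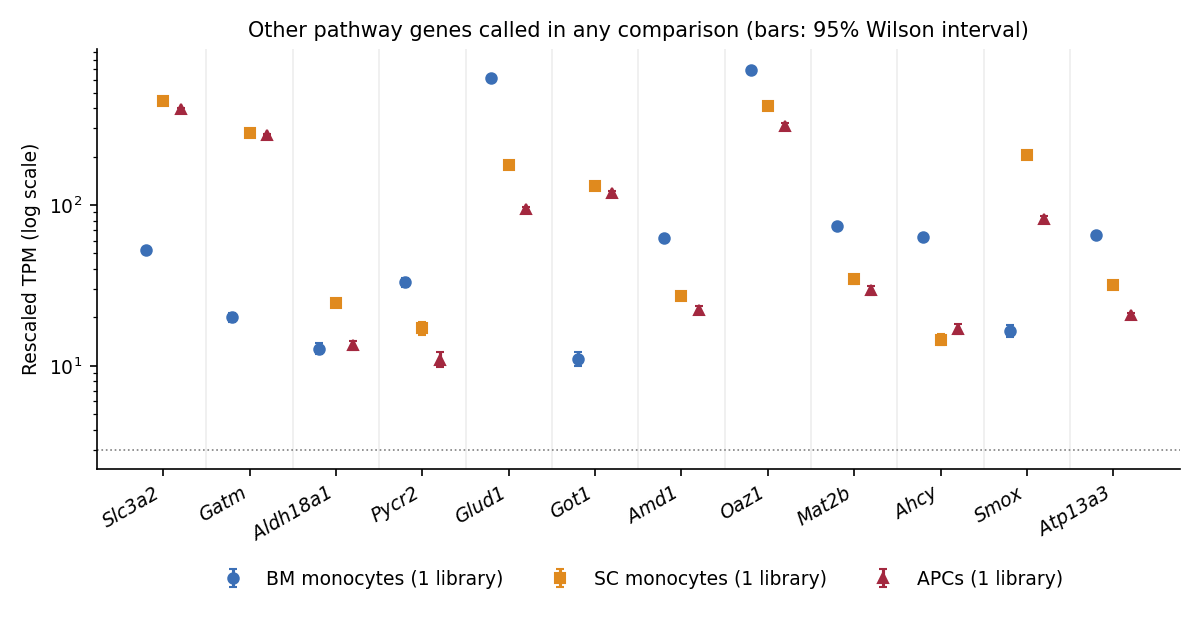
Rescaled TPM (log axis) of the 12 genes of the wider pathway lists that were called in any of the 3 comparisons, in BM monocytes, SC monocytes and APCs, 1 library each; bars are 95% Wilson intervals and the dotted line marks 3 TPM. Slc3a2, Gatm, Got1 and Smox are lowest in BM monocytes, while Glud1, Oaz1 and Ahcy are highest there.

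Of 8 further genes of polyamine synthesis and its control, all active, 0 were called higher and 1 lower from BM to SC monocytes, beside 13.6% and 11% of all active genes. The gene called was Ahcy, which clears S-adenosylhomocysteine and fell by 1.55 on the log2 scale (63.1, 14.6 and 16.9 TPM). Amd1, which supplies the aminopropyl groups used by Srm and Sms, stood at 62.5, 27.3 and 22.3 TPM and was called lower only in APCs against BM monocytes. So was Oaz1, the antizyme that targets ornithine decarboxylase for degradation, at 697, 412 and 313 TPM. In that comparison 4 of the 8 genes were called lower and 0 higher, beside 11.7% and 14% of all active genes. Per length, 2 of the 4 genes of this group called lower in APCs against BM monocytes were still called, and no lower call of the wider list was left in either comparison with BM monocytes where libraries were assumed to vary with a coefficient of variation of 0.2.

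Smox, spermine oxidase, which turns spermine back to spermidine, was the 1 polyamine gene outside the 10 called higher in SC than BM monocytes. It rose by 3.52 on the log2 scale. Its levels of 16.5, 204 and 81.9 TPM ranked the libraries as the erythroid sum did, and it fell by 1.37 from SC monocytes to APCs, the one call of the 53 genes in that step. Smox was thus highest in the library in which Sms was lowest. With Sms-ps reads added to Sms, its log2 fold change from SC monocytes to APCs was 0.21 (98% interval -0.01 to 0.43), within counting error of 0. Sat1, which acetylates polyamines for export, was abundant in every library at 637, 714 and 416 TPM and was not called. Atp13a3, a polyamine transporter, fell by 1.14 from BM to SC monocytes (65.6, 31.9 and 20.6 TPM), and per length it stood at -0.82 and was not called.

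Of 4 genes of hypusination, the modification of Eif5a that consumes spermidine, 0 were called in any comparison, with Eif5a at 737, 637 and 569 TPM. Of 6 further tetrahydrobiopterin genes, 4 were active and 0 were called in any comparison. Pts and Spr, which complete the cofactor after Gch1, were among these, with Pts at 79.6, 38.9 and 48.4 TPM and Spr at 25.2, 19.6 and 20.7 TPM. Gch1 was thus the only one of the tetrahydrobiopterin genes followed here to be called higher in SC than BM monocytes. Beside the counts of 0 in both lists, 24.6% of all active genes were called in SC against BM monocytes. The shares were 3.61% in APCs against SC monocytes and 25.8% in APCs against BM monocytes. With lists this short, 0 calls say little about them at these shares.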

How the data were processed

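RNA-Seq libraries (300 ng of RNA, 11 PCR cycles, 50 bp reads) of 3 sorted populations were analysed. The authors ran Salmon 0.14.1 against mm10 transcripts, and deposited TPM, estimated counts and effective lengths per gene. The deposited estimated counts were not normalized, and were rounded here to whole reads. The deposited TPM was corrected for length and depth by the authors, and was rescaled here over 22238 common genes. The 10 genes and all lists were chosen with earlier results of these data known. Following the GFold definition in the study's methods, the ratio of 2 libraries was given a gamma posterior of reads plus 1 with median-of-ratios size factors per pair. Calls required that percentile 1 or 99 lay beyond 2-fold and that TPM was over 3 in either library. Simulated reads with 200 well-covered genes altered 4-fold, and counting error only, gave 200 calls among them in each comparison. Variation between libraries was not simulated, so this checks the calculation and not the calls between populations. Named were the 10 genes, their 3 nearest genes by fold changes where called, and called or abundant list genes. Results on 2 list genes are not reported here, and the lists' counts leave them out. The study's methods name the whole GENCODE vM22 transcripts as reference, and the APC values list far fewer genes than the monocyte values, for a reason not given in the sources used here. Alternatives covered thresholds, scaling, effective length, assumed spread (coefficient of variation 0.2 and 0.4), pseudocounts and all monocyte genes, and adding Sms-ps reads was chosen after seeing the data. Symbols and coordinates came from GENCODE M21 (GRCm38). TMM factors came from edgeR 4.0.16 in R 4.3.3, and all else from Python 3.11.15 with scipy 1.17.1, numpy 2.4.6, pandas 2.3.3 and matplotlib 3.10.9.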

Additional observations from a re-analysis of the deposited data

How the results depend on the processing

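No paired analysis was possible because each population had 1 library, also where both spinal cord pools came from the same mice, and the labels give no shared replicate numbers. Single fold changes were recomputed for the 10 genes, and none that was called reversed under these alternatives. Scaling by total reads moved the median of active genes by -0.16 in SC against BM monocytes and by -0.14 in APCs against BM monocytes, and the calls of the 10 genes held. Of the 10 genes, 1 (Sms) was lower in SC than BM monocytes on rescaled TPM plus 0.1, and 0 were lower in APCs than SC monocytes with an assumed coefficient of variation of 0.2 or 0.4 or with TPM as deposited plus 1. Ass1 was not called against BM monocytes with a coefficient of variation of 0.4. For the wider list in SC against BM monocytes, 9 genes were higher with no TPM threshold, and lower genes numbered 0 with a coefficient of variation of 0.2 or 0.4, 5 with total reads, a plain 2-fold change or all genes of the monocyte libraries, 7 on TPM as deposited plus 1, 7 on rescaled TPM plus 1 and 12 on rescaled TPM plus 0.1. In APCs against SC monocytes, 0 were lower with a coefficient of variation of 0.2 or 0.4, and 2 on rescaled TPM plus 1 or 0.1. In APCs against BM monocytes, 7 were higher with no TPM threshold, and 0 were lower with a coefficient of variation of 0.2 or 0.4. The spread settings widen each interval and the plain TPM settings have none. Uncalled differences changed sign for Asl and Srm (SC against BM monocytes), for Nos2, Ass1 and Srm (APCs against SC monocytes, TPM as deposited) and for Srm and Gch1 (APCs against BM monocytes). The fold change of Nos2 from 8 reads depended most on the pseudocount, with log2 values of 7.77 on TPM as deposited plus 1 and 7.98 on rescaled TPM plus 1.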

Other observations

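The cytosolic and mitochondrial members of 2 enzyme pairs differed in the spinal cord libraries. Arg1 and Arg2 both rose from BM to SC monocytes, whereas of the aspartate aminotransferases Got1 rose (log2 fold change 3.67) and Got2, at -0.76, was not called. Got1 exceeded Got2 in SC monocytes (131 against 72.9 TPM) and APCs (119 against 70.4 TPM), and was below it in BM monocytes (11.0 against 147 TPM). Glul, glutamine synthetase, stood at 249.9, 162 and 201 TPM in BM monocytes, SC monocytes and APCs and was not called. Azin1, the antizyme inhibitor that protects ornithine decarboxylase, stood at 115, 111 and 64.2 TPM, so that it was about level where Odc1 rose. Mat2a, which makes S-adenosylmethionine, stood at 69.0, 103 and 58.1 TPM and was not called.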
